A study of Mus musculus with 12 samples.

Results

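The response of wild-type mouse liver to dexamethasone, a synthetic glucocorticoid, was measured by comparing 3 treated with 3 untreated livers, chosen by their sample titles from a series of 12 one-colour arrays. All 6 animals were male C57BL/6 mice without the series' second genotype (labelled HESKOL), aged 8 to 10 weeks and adrenalectomized, an operation that takes away the animal's own source of glucocorticoids. The 3 treated mice received dexamethasone into the peritoneum at 1 mg/kg and their livers were taken 6 hours later. The 3 untreated mice had the same operation, and no vehicle injection is described for them, so the drug and the act of injection cannot be told apart. Each array held the liver RNA of 1 mouse, and the series design gives 3 mice per group, so replicates are separate animals. All 14 hepatocyte markers on the array, among them albumin and apolipoprotein genes, were well above background on all 6 arrays.

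Glucocorticoids enter the cell and bind the glucocorticoid receptor, which is held in the cytoplasm by heat shock proteins, then moves to the nucleus and binds DNA at paired inverted sites. It raises the transcription of some genes directly and lowers others, many of them inflammatory, through other transcription factors. In liver the hormone is known for inducing enzymes that break down amino acids and make glucose, and for acting together with insulin, fasting and the clock.

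Levels are given throughout as the log2 signal relative to the 75th percentile of its own array, so a level of 0 is the signal at that percentile, and changes are log2 differences of treated minus untreated with their standard error (SE). Unless another setting is named, an adjusted p comes from limma with Benjamini-Hochberg adjustment over the 18724 genes tested, at a threshold of 0.05. The spread was estimated over all 12 arrays, while each change rests on the 6 wild-type arrays. The small number of arrays limits the precision, and the median SE was 0.31.

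The 6 arrays did not differ only by treatment. Their brightness ran from 897 to 1522 units at the 75th percentile, and the share of probes well above background from 61.5% to 71.0%. Along the first principal component, which held 39.0% of the variance, the untreated arrays scored -51.2, -16.5 and -11.9. Treated replicate 1 scored -50.1 on it, within the untreated arrays, while treated replicates 2 and 3 scored 44.8 and 84.9. The second component, with 24.5% of the variance, placed the treated arrays at -77.9, -1.02 and -14.7, all below the untreated ones at 34.1, 34.6 and 24.9. Treated replicate 1 had the largest root mean square deviation from the other arrays of its group, 0.99 against 0.46 to 0.80 for the rest, and results that rest on it are given with and without it. It was singled out by these same values, so adjusted p values without it are likely too small and serve as description. All 3 untreated arrays sat on slide 1, treated replicates 1 and 2 on slide 2 and treated replicate 3 on slide 3, so slide and treatment cannot be told apart within wild-type liver.

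**Figure D1:**
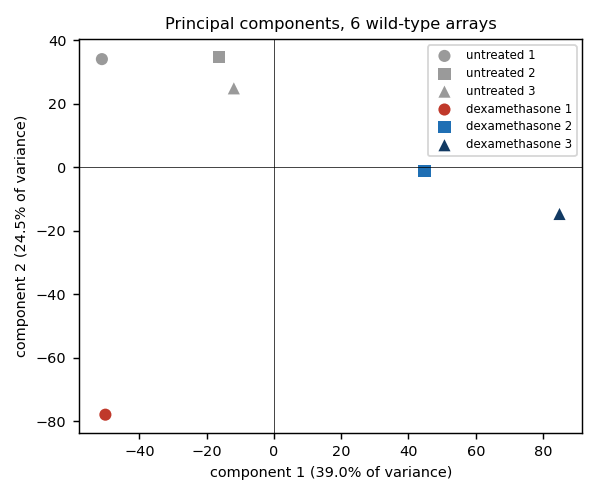
The first 2 principal components of the 6 wild-type arrays over all tested genes, with the score on the first component on the x axis, the score on the second on the y axis and 1 point per array coloured by treatment. Treated replicate 1 lies with the untreated arrays on the first component (-50.1) and beyond the other treated arrays on the second (-77.9).

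Dexamethasone raised 30 genes, 0.16% of those tested, and lowered 6, which is 0.032%. The 30 comprised 24 genes with a symbol, 2 known only by a clone name and 4 probes without a gene name, and all 6 that fell had a symbol. The 3 treated arrays lay on one side of the 3 untreated arrays for all 36. These genes were selected on the same arrays, which favours such separation, so it is no further evidence. Over all tested genes the treated arrays were all higher for 1152 (6.15%) and all lower for 1104 (5.9%), and 2199 genes had an unadjusted p under 0.05. Of the 36 calls, 10 held whichever of the 6 wild-type arrays was left out, and 7 of these have a symbol: Cdkn1a, Gadd45b, Dusp1, Bcl2l1, Ptp4a1, Retreg1 and Fam107a. The count moved from 36 to 13, 12 and 15 without untreated replicates 1, 2 and 3, and to 1116, 101 and 11 without treated replicates 1, 2 and 3. No gene passed when the 6 arrays were fitted alone (1384 at an unadjusted p under 0.05), nor with slide as a block (606), where the comparison passes through the arrays of the other genotype. All 36 genes kept their direction with the slide block, 35 of them at an unadjusted p under 0.05. The smallest adjusted p in limma with that block was 0.206. The 36 were selected on these same arrays, so their kept direction does not separate slide from treatment.

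**Figure D2:**
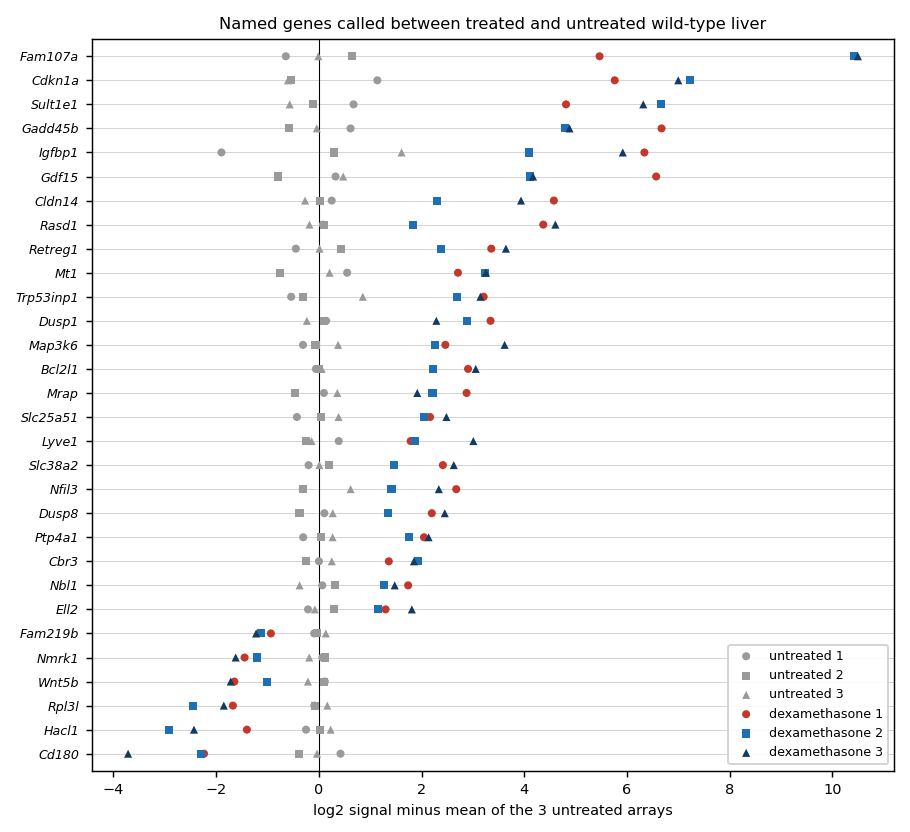
Level of each gene with a symbol that passed the threshold on each of the 6 wild-type arrays, as its log2 level minus the mean of the 3 untreated arrays (x axis), with 1 row per gene, grey points for untreated and coloured points for treated livers. Treated and untreated points do not overlap for any gene shown, and Fam107a, at the top, has the widest separation. The genes shown were selected on these same arrays.

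Genes that stop the cell cycle or mark cell stress were among the strongest responses. Cdkn1a, which encodes the cyclin-dependent kinase inhibitor p21, stood at -2.61, -4.28 and -4.35 in the untreated livers and at 2.02, 3.49 and 3.25 in the treated ones. Its transcript rose by 6.67 (SE 0.54, adjusted p = 0.00136), or 101-fold, and moved from well below the array's 75th percentile to well above it in every treated animal. The Cdkn1a probe lies on chromosome 17 at 27293819 to 27293878 of the mm7 build. Gadd45b, an inducible growth arrest and stress signalling protein, stood at -1.50, -2.69 and -2.16 untreated and at 4.56, 2.68 and 2.76 treated. It rose by 5.45 (SE 0.51, adjusted p = 0.00171), with treated replicate 1 the highest, and its probe lies at 80721751 to 80721810 on chromosome 10 in mm7. Gdf15, a secreted stress hormone of the transforming growth factor family, rose by 4.95 (SE 0.69, adjusted p = 0.0197) and also peaked in replicate 1, at 6.53 against 4.08 and 4.14 in the other treated livers. Trp53inp1, a p53-inducible stress protein, rose by 3.02 (SE 0.42, adjusted p = 0.0179) to between 4.91 and 5.42. Bcl2l1, which encodes the survival protein Bcl-xL, had closely spaced untreated levels of -0.43, -0.36 and -0.31 and treated levels of 2.54, 1.85 and 2.69, a rise of 2.73 (SE 0.25, adjusted p = 0.00171). Gdf15 was called in 2 and Trp53inp1 in 3 of the 6 fits that left out an array. A list of growth arrest and p53-linked genes, which does not hold Bcl2l1, had 20 tested members. Of these, 4 rose (Cdkn1a, Gadd45b, Gdf15 and Trp53inp1) and none fell, beside 0.16% and 0.032% of all tested genes. The list's median change was 0.32, beside -0.02 over all tested genes.

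Several regulators of kinase and small GTPase signalling rose. Dusp1, a dual specificity phosphatase that inactivates MAP kinases and is a classic glucocorticoid-induced gene, stood at 1.46, 1.41 and 1.08 untreated and at 4.66, 4.2 and 3.60 treated. The untreated values lay close together and the treated ones were all higher, a rise of 2.84 (SE 0.26, adjusted p = 0.00171), or 7.15-fold. Its relative Dusp8 rose by 2.0 (SE 0.31, adjusted p = 0.0319) from a low level, -2.98 to -2.33 untreated and -1.25 to -0.15 treated. The probes of Dusp8 differed in size, 2.0 and 3.90, with the same sign. These were the 2 of 15 tested dual specificity phosphatases that passed, beside 0.16% of all tested genes that rose. Dusp14 was higher in all treated livers with a change of 2.37 (adjusted p = 0.103). Ptp4a1, a prenylated tyrosine phosphatase, rose by 1.98 (SE 0.22, adjusted p = 0.0041), from 3.91, 4.25 and 4.48 to 6.26, 5.98 and 6.35, with the treated values close together. Rasd1, a dexamethasone-induced Ras-related GTPase, was at -4.19, -4.17 and -4.45 in the untreated livers and at 0.10, -2.44 and 0.34 in the treated ones, a rise of 3.60 (SE 0.57, adjusted p = 0.0338) in which treated replicate 2 was the lowest. Map3k6, a stress-activated kinase, rose by 2.78 (SE 0.39, adjusted p = 0.0197). Dusp8, Rasd1 and Map3k6 were each called in 2 of the 6 fits that left out an array.

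Other genes that rose act in hormone pathways or are secreted. Igfbp1, a liver-secreted protein that binds insulin-like growth factors, varied widely before treatment, with untreated levels of 0.71, 2.89 and 4.21. The treated livers were at 8.95, 6.70 and 8.52, all above the untreated range, and the rise was 5.45 (SE 0.79, adjusted p = 0.023). It was called in 4 of the 6 fits that left out an array. Of 13 tested members of the insulin-like growth factor list it was the 1 to pass, beside 0.16% of all tested genes that rose. Sult1e1, the sulfotransferase that inactivates oestrogen, rose by 5.93 (SE 0.87, adjusted p = 0.0253), or 61.0-fold, from -2.50, -3.29 and -3.75 to 1.63, 3.48 and 3.14. Mrap, an accessory protein of melanocortin receptors, rose by 2.34 (SE 0.39, adjusted p = 0.0475), and its weakest treated liver at 6.12 was still above the strongest untreated one at 4.56. Nbl1, a secreted antagonist of bone morphogenetic proteins, rose by 1.5 (SE 0.25, adjusted p = 0.0486). Sult1e1 and Nbl1 were each called in 2 of the 6 fits that left out an array and Mrap in 1.

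Transporters, metal-binding proteins and other genes made up the rest of those that rose. Mt1, a metallothionein that binds zinc and copper, stood at 5.57, 4.26 and 5.23 untreated and at 7.73, 8.25 and 8.28 treated, a rise of 3.06 (SE 0.41, adjusted p = 0.0153) in an already abundant transcript. A second Mt1 probe gave 5.45, so the direction was shared and the size was not. The zinc carrier Slc39a14 was also higher in every treated liver, with a change of 1.58 (adjusted p = 0.0983). Of 12 tested metallothioneins and zinc transporters 1 passed, beside 0.16% of all tested genes that rose. In that list 6 changes were positive and 6 negative, with a median of 0.05. All treated livers were higher for 3 members and lower for 1, beside 6.15% and 5.9% of all tested genes. Slc38a2, a sodium-coupled carrier of neutral amino acids, rose by 2.17 (SE 0.29, adjusted p = 0.017) from 3.46, 3.85 and 3.67 to 6.07, 5.12 and 6.29. It was the 1 of 16 tested amino acid transporters that passed, beside 0.16% of all tested genes that rose. Slc25a51, the mitochondrial carrier of NAD+, rose by 2.23 (SE 0.28, adjusted p = 0.0115). Cbr3, a carbonyl reductase, rose by 1.72 (SE 0.24, adjusted p = 0.0202), and Cldn14, a tight junction protein, by 3.60 (SE 0.46, adjusted p = 0.0115). Retreg1, a receptor for autophagy of the endoplasmic reticulum, had untreated levels of 1.01, 1.90 and 1.47 and treated levels of 4.82, 3.83 and 5.10, a rise of 3.13 (SE 0.32, adjusted p = 0.00259). Lyve1, a hyaluronan receptor of sinusoidal and lymphatic endothelium, rose by 2.22 (SE 0.34, adjusted p = 0.0303). It was the 1 of 15 endothelial markers that passed, beside 0.16% of all tested genes that rose. The endothelial list's median change was 0.12, and its mean level ran from 1.03 to 1.15 untreated and from 1.23 to 1.38 treated. The part of the endothelial cells in the Lyve1 result was not tested.

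The widest estimated change of all belonged to Fam107a, a gene also known for its induction by glucocorticoids in brain. Its level was -8.00, -6.71 and -7.37 in the untreated livers and -1.89, 3.06 and 3.14 in the treated ones. Fam107a was well above background on 1 of 3 untreated arrays and all treated ones, and rose by 8.79 (SE 1.05, adjusted p = 0.00747). The untreated signal was thus mostly too dim to measure well, so the size of the rise is uncertain. Treated replicate 1 was well short of the others, yet far above all untreated livers, and without it the rise was 10.46. The Fam107a probe lies at 6106017 to 6106076 on chromosome 14 in mm7. Among transcription factors and their cofactors, Nfil3, a repressor that also acts on clock genes, rose by 2.14 (SE 0.35, adjusted p = 0.0475), and the elongation factor Ell2 by 1.42 (SE 0.24, adjusted p = 0.0475). Mt1, Slc25a51, Cldn14 and Nfil3 were each called in 3 of the 6 fits that left out an array, and Slc38a2, Cbr3, Lyve1 and Ell2 in 2.

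Of the 6 genes that fell, 4 were detected in both groups. Hacl1, a peroxisomal lyase of fatty acid alpha-oxidation, stood at 0.01, 0.28 and 0.49 untreated and at -1.14, -2.65 and -2.17 treated, a fall of -2.25 (SE 0.34, adjusted p = 0.0278). Nmrk1, a kinase that turns nicotinamide riboside into an NAD+ precursor, was at 2.59, 2.64 and 2.33 untreated and at 1.07, 1.32 and 0.90 treated, a change of -1.42 (SE 0.21, adjusted p = 0.0278). Wnt5b, a secreted Wnt ligand, changed by -1.46 (SE 0.22, adjusted p = 0.0278), and Fam219b, whose role is less well known, by -1.09 (SE 0.18, adjusted p = 0.0475). A second Fam219b probe changed by -0.24. In none of these genes did the ranges of the groups overlap. The other two were dim, and both turned to an increase with normexp background correction: Cd180, a Toll-like receptor relative of B cells and macrophages, fell at least 3.62-fold (adjusted p = 0.0475) but gave 0.39 with that correction, and Rpl3l, a muscle form of a ribosomal protein, fell at least 1.18-fold (adjusted p = 0.0431) but gave 0.73. Both were not well above background in any treated liver, so the bound sets the untreated mean against the higher, on each treated array, of the probe's own signal and the dimmest signal that counted as well above background there. Rpl3l was well above background on only 2 of the untreated arrays, and it entered the test only through the arrays of the other genotype. Of the wild-type groups, Cd180 met the entry filter only in the untreated one, where it was higher. The adjusted p values of both genes rest on treated signal not well above background. None of the 6 was called without untreated replicate 1, without untreated replicate 2 or without treated replicate 3.

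Promoter sequence was examined for the receptor's binding motif, and the windows that hold a match are printed because they belong to genes that changed. The RefSeq promoter table gives 250 bases before the start of a gene on the GRCm38.p6 build, and 20 of the 30 genes that rose and all 6 that fell had an entry. The full motif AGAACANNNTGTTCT was searched with at most 2 mismatches outside its spacer of any bases (N), and the core ACANNNTGT without mismatch. Both read the same on either strand, and the core lies inside the full motif. Capitals mark the match, and each sequence is written 5′ to 3′ on the strand of its gene.
Fam107a, full motif, chr14:8309864-8309918, minus strand: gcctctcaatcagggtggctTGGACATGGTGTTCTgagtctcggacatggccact
Mt1, core, chr8:94178977-94179025, plus strand: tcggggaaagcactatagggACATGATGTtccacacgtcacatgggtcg
Bcl2l1, core, chr2:152828615-152828663, minus strand: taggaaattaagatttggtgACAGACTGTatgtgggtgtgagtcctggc
Map3k6, core, chr4:133240619-133240667, plus strand: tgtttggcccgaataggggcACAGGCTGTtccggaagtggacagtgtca
Retreg1, core, chr15:25940569-25940617, plus strand: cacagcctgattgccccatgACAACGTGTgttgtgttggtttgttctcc
Wnt5b, core, chr6:119467300-119467348, minus strand: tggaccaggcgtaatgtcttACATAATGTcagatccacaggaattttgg

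The full motif was found for 1 of the 20 genes that rose and had an entry (5%), which was Fam107a. Fam107a carries the motif with 2 mismatches, beginning 119 or 121 bases before its 2 annotated starts. Each gene counted once, as a match if any of its entries held the motif. Over all 27025 genes of the promoter table the full motif's share was 1.772%, and over the 12020 tested genes among them 1.273%. The core was found for 5 of the 20 (25%), beside 6.764% of all genes and 5.058% of the tested ones. In the other matches it began 92 bases before the start in Mt1, 113 in Retreg1, 154 in Bcl2l1 and 179 in Map3k6. Among the genes that fell, the promoter of Wnt5b held the core, 117 bases before its start. In the larger set called higher without treated replicate 1, 24 of 329 genes with an entry (7.295%) held the core and 8 (2.432%) the full motif. Of the 448 genes with an entry called lower in that fit, 16 (3.571%) held the core and 5 (1.116%) the full motif. These are matches of letters in a short window, given as counts without a test.

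Known targets of the glucocorticoid receptor were taken as a list of 28 genes, of which 27 were tested. This list was compiled with results of these samples known, so its direction is not independent evidence. Among its members are 7 of the genes described above (Cdkn1a, Gadd45b, Igfbp1, Sult1e1, Dusp1, Mt1 and Rasd1), so 7 of 27 rose and none fell, beside 0.16% and 0.032% of all tested genes. The 3 treated livers were all higher than the untreated ones for 19 of the 27 and all lower for 1, Tfcp2l1, a gene picked out here by that count, beside 6.15% and 5.9% of all tested genes. The list's median change was 1.74, and the medians of the 3 treated livers lay close together, at 1.58, 1.79 and 1.90 above the untreated mean. With slide as a block the list's median change was 0.86.

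Members of that list outside the calls differed in how evenly the livers responded. Tat, the liver's tyrosine aminotransferase, was at 6.67, 7.16 and 7.56 untreated and at 8.55, 8.76 and 8.55 treated, a change of 1.49 (SE 0.29) that missed the threshold at an adjusted p of 0.0926. Sgk1, a kinase that regulates ion transport, was at 1.85, 1.94 and 2.11 untreated and at 4.33, 3.39 and 4.06 treated (change 1.96, adjusted p = 0.107). In both genes every treated liver exceeded every untreated one, and both passed without treated replicate 1 (adjusted p = 0.026 and 0.0465). Mt2, the second liver metallothionein, had a change of 1.73 (adjusted p = 0.183), and Cebpd, a transcription factor of the acute phase, of 1.93 (adjusted p = 0.115). Per1, a clock gene with a glucocorticoid response element, changed by 0.99 (adjusted p = 0.386). Mt2, Cebpd and Per1 were each higher in all 3 treated livers than in any untreated one.

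Other members were raised in treated replicates 2 and 3 and not, or less, in replicate 1. Fkbp5, a co-chaperone that feeds back on the receptor, was at 0.33, 1.19 and -0.64 untreated and at -0.99, 3.45 and 3.98 treated. Replicate 1 lay below all untreated livers, the change was 1.85 (SE 1.04, adjusted p = 0.531), and without it Fkbp5 rose by 3.42 (SE 0.53, adjusted p = 0.00869). Ddit4, an inhibitor of mTOR signalling, was at 2.16, 2.18 and 3.13 untreated and at 4.07, 6.65 and 6.91 treated, a change of 3.39 (SE 0.68, adjusted p = 0.0983). Every treated liver was higher, and without replicate 1 it rose by 4.29 (adjusted p = 0.00218). Tsc22d3, which encodes the anti-inflammatory protein GILZ, was at 3.43, 3.75 and 3.44 untreated and at 2.40, 5.51 and 4.32 treated. Its change was 0.54 (adjusted p = 0.784) with all arrays, 1.38 without treated replicate 1 (adjusted p = 0.0629) and -0.18 without treated replicate 2. Leaving out treated replicate 1, 13 of the 27 members rose and 1 fell, beside 2.54% of 18794 tested genes higher and 3.4% lower.

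The receptor and the enzyme that activates its ligand showed no change past the threshold. Nr3c1, the glucocorticoid receptor gene, was at 2.35, 2.47 and 2.70 untreated and at 2.34, 2.38 and 2.37 treated, a change of -0.14 (SE 0.18, adjusted p = 0.817) that became 0.02 over the mean of its probes. Hsd11b1, which regenerates active glucocorticoid in liver, ran from 6.07 to 6.80 untreated and from 6.57 to 6.77 treated (change 0.13, adjusted p = 0.884), and its sign turned with quantile normalization (-0.11), normexp correction (-0.08) and unscaled values (-0.20). Hes1, the Notch effector named in the study's title, was at -1.49, -1.21 and -1.90 untreated and at -1.16, -2.57 and -2.92 treated. Its change was -0.68 (SE 0.43, adjusted p = 0.579), and -1.21 without treated replicate 1, where it missed the threshold at an adjusted p of 0.062. None of the 15 tested genes of the receptor, its chaperones and its activation passed, and their median change was 0.15.

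**Figure D3:**
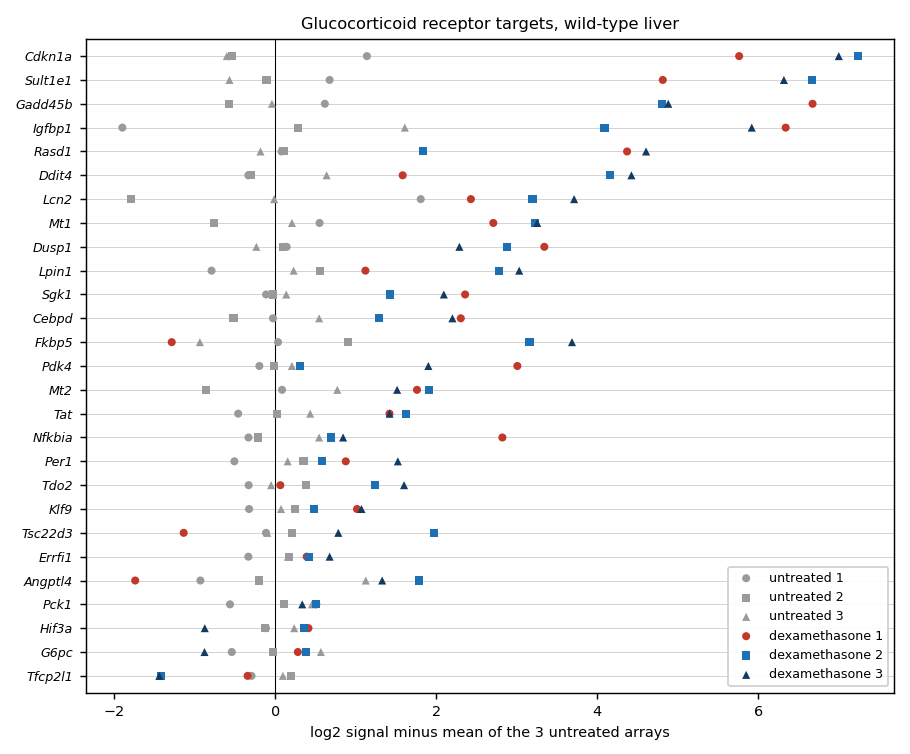
Levels of the 27 tested receptor targets on the 6 wild-type arrays, as the log2 level minus the mean of the 3 untreated arrays (x axis), with 1 row per gene, untreated livers in grey, treated replicate 1 in red and replicates 2 and 3 in blue. In Fkbp5 and Tsc22d3 treated replicate 1 lies below all untreated livers, while in Tat and Sgk1 all treated livers lie above them.

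Genes of glucose and amino acid metabolism, the textbook hepatic targets of the hormone, gave no call in this comparison. Of 18 tested genes of gluconeogenesis and glucose output none passed, and the median change was 0.10. All treated livers were higher for 1 of them, beside 6.15% of all tested genes. Pck1, which encodes the cytosolic enzyme that commits oxaloacetate to gluconeogenesis, was abundant in all livers, at 6.91, 7.57 and 7.93 untreated and at 7.98, 7.98 and 7.80 treated, and the ranges overlapped (change 0.45, SE 0.32, adjusted p = 0.625). G6pc, the glucose-6-phosphatase of liver, ran from 4.15 to 5.26 untreated and from 3.81 to 5.08 treated. Its change was -0.07 (adjusted p = 0.973), and 0.33 without treated replicate 3. Among 25 genes of amino acid breakdown and the urea cycle none passed, and the median change was 0.23. All treated livers were higher for 4 of these 25 and lower for none, beside 6.15% and 5.9% of all tested genes. Without treated replicate 1, 5 of them rose, beside 2.54% of all tested genes, among them Aass, of lysine breakdown, by 1.58 (adjusted p = 0.0271), the serine dehydratase relative Sdsl by 1.97 (adjusted p = 0.0271) and the mitochondrial ornithine carrier Slc25a15 by 1.82 (adjusted p = 0.0249). Aass was at 6.38 in replicate 1, just above the highest untreated value of 6.35.

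The chaperones and enzymes of the unfolded protein response, which help proteins fold in the endoplasmic reticulum, were higher together. All 25 tested members had a positive change, the median was 0.79, and 9 were higher in all 3 treated livers than in any untreated one, beside 6.15% of all tested genes, although none passed. Hspa5, the main chaperone of that compartment, was at 5.53, 6.07 and 5.84 untreated and at 6.49, 7.79 and 7.82 treated, a change of 1.55 (SE 0.37, adjusted p = 0.139). Creld2, a secreted target of the response, was at 4.14, 4.17 and 4.50 untreated and at 4.72, 7.52 and 7.49 treated (change 2.31, adjusted p = 0.201). Treated replicate 1 was above all untreated livers in both, but by much less than replicates 2 and 3. Without it 13 of the 25 rose and none fell, beside 2.54% and 3.4% of all tested genes, including Hspa5 by 1.99 (adjusted p = 0.00662), Creld2 by 3.24 (adjusted p = 0.00218), Manf, a secreted survival factor, by 2.33 (adjusted p = 0.00815), and Syvn1, the ubiquitin ligase of misfolded proteins, by 1.86 (adjusted p = 0.00463). Atf6, a sensor of the response, had a smaller rise of 0.90 (adjusted p = 0.0446), and the chaperone Hyou1 one of 1.63 (adjusted p = 0.0331).

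Cytoplasmic heat shock proteins and acute phase proteins were also shifted upward without passing. Of 17 tested heat shock proteins 16 had a positive change, the median was 0.50, and it was 0.74 without treated replicate 1. Hspb8 and Bag3, which work as a pair in chaperone-assisted autophagy, were higher in every treated liver, with changes of 0.92 (adjusted p = 0.143) and 0.93 (adjusted p = 0.144). Hsp90aa1, the inducible form of the chaperone that holds the receptor, was at 5.74, 5.45 and 5.58 untreated and at 5.57, 6.95 and 6.83 treated, and rose by 1.30 without replicate 1 (adjusted p = 0.0141). All 23 acute phase genes had a positive change with a median of 0.45, which was 0.22 with quantile normalization. Of these, Serpina3n, a serine protease inhibitor, was at 5.65, 4.74 and 4.44 untreated and at 5.61, 6.78 and 7.98 treated. Replicate 1 lay within the untreated range, and without it Serpina3n rose by 2.43 (adjusted p = 0.0179). It was the 1 member of the list to do so, beside 2.54% of all tested genes. Lcn2, an iron-siderophore binding protein, was higher in all treated livers with a change of 3.11 (adjusted p = 0.302), but its untreated levels spread from 0.54 to 4.15, and with slide as a block its change was -0.45.

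Immediate early genes, the transcription factors and regulators that respond within minutes to many stimuli, set treated replicate 1 apart in the other direction. All 20 tested members had a positive change, with a median of 1.63, and none passed. The medians of the 3 treated livers were 3.71, 0.52 and 1.09 above the untreated mean. Egr1, a zinc finger factor, was at -1.91, -0.45 and -1.39 untreated and at 7.09, 2.51 and 3.12 treated. Fos was at -4.03, -4.56 and -4.71 untreated and at 3.14, -1.38 and -1.11 treated. For both genes every treated liver was above every untreated one, replicate 1 was by far the highest, and the changes of 5.49 (SE 1.08) and 4.65 (SE 1.03) missed the threshold (adjusted p = 0.0983 and 0.123). Without replicate 1 the spread was smaller and 5 members rose, beside 2.54% of all tested genes. They were Egr1 by 4.06 (adjusted p = 0.019), Fos by 3.19 (adjusted p = 0.0206), its partner Jun by 1.48 (adjusted p = 0.0365), the small Maf protein Maff by 2.10 (adjusted p = 0.0183), and Zfp36, which destabilizes inflammatory transcripts, by 2.01 (adjusted p = 0.0096). Socs1, a feedback inhibitor of cytokine receptors, showed the same arrangement, at -1.57, -1.66 and -1.58 untreated and at 5.14, 0.28 and 1.52 treated. Socs1 rose by 2.51 (adjusted p = 0.00405) without replicate 1.

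Leaving out treated replicate 1 gave 1116 genes past the threshold, of which 477 rose and 639 fell. Leaving out any other single wild-type array gave 11 to 101. Replicate 1 was left out because it stood apart in these same data, which also narrows the estimated spread. The adjusted p values of that fit are likely too small. Of the 1101 that were also tested with all arrays, replicate 1 lay on the same side of the untreated mean as replicates 2 and 3 for 594. It was above all untreated livers for 234 of 462 that rose and below all of them for 198 of 639 that fell. The increases and decreases given next therefore hold for treated replicates 2 and 3 against the untreated livers.

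Among the increases without replicate 1, Cyp2b10, a cytochrome P450 induced by the receptor CAR, was at -0.16, -0.41 and -1.17 untreated and at 1.08, 4.98 and 4.50 treated. It rose by 5.32 without replicate 1 (SE 0.58, adjusted p = 0.00218), and replicate 1 was itself above every untreated liver. Its near-identical relatives Cyp2b9 and Cyp2b13 rose by 4.78 (adjusted p = 0.00858) and 5.26 (adjusted p = 0.00628), also with replicate 1 above every untreated liver, and probes of this family may share signal, which was not tested. These 3 were all that rose of 24 tested P450 genes, beside 2.54% of all tested genes. The median change of the P450 genes with all arrays was 0.05. Sult1d1, a sulfotransferase, rose by 2.58 (adjusted p = 0.00627), with replicate 1 at 3.75, below the untreated range of 4.03 to 4.51. Wfdc12, a small protease inhibitor, was at -3.86, -4.62 and -3.91 untreated and at -4.35, 3.09 and 3.44 treated. It rose by 7.4 without replicate 1 (SE 0.36, adjusted p = 1.7e-05), which itself stood at the untreated level. Retnla, a secreted resistin-like protein, rose by 7.52 (adjusted p = 0.00906), and A2m, a broad protease inhibitor, by 6.64 (adjusted p = 0.0109). Replicate 1 was above all untreated livers in both, at -5.20 and -4.07, but close to untreated replicate 1 at -5.65 and -4.88. Atp6v0a4, a proton pump subunit, and Tg, thyroglobulin, were well above background in treated replicates 2 and 3 and in no other liver. By the mean of all 3 treated livers they were at least 6.25-fold and at least 5.39-fold higher, and neither passed with all arrays. For Atp6v0a4 replicate 1, at -8.87, lay inside the untreated range (adjusted p = 0.236 with all arrays). Slc10a6, a carrier of sulfated steroids, was higher in all treated livers, at -2.51, -3.06 and -0.01 against -7.62 to -5.08, with a change of 4.33 that narrowly missed the threshold with all arrays (adjusted p = 0.0558).

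Some lipid droplet and clock genes also differed between treated replicates. Plin4, a coat protein of lipid droplets, was at -0.68, -0.85 and -0.09 untreated and at 0.95, 2.48 and 3.61 treated (change 2.89, adjusted p = 0.08). It rose by 3.58 without replicate 1 (adjusted p = 0.00218), together with Lpin1, a phosphatidate phosphatase, by 2.91 (adjusted p = 0.0317) and the related coat protein Plin5 by 1.73 (adjusted p = 0.0166). Replicate 1 was above all untreated livers in Plin4 and Lpin1 (4.68 against at most 4.12), but below all of them in Plin5 (3.36 against at least 3.87). These were the 3 of 21 tested lipid droplet, lipin and lipase genes that rose, beside 2.54% of all tested genes. With all arrays 14 of the 21 had a positive and 7 a negative change. G0s2 went the other way, at 3.35, 3.24 and 3.97 untreated and at 0.51, 2.34 and -0.15 treated. It was lower in every treated liver, with a change of -2.62 (adjusted p = 0.223). Among 19 clock genes Arntl, which encodes the activator BMAL1, was at -1.23, -1.65 and -2.71 untreated and at -3.03, 0.91 and 0.89 treated. Dbp, an output gene of the clock, was at 5.18, 5.83 and 6.82 untreated and at 6.87, 3.91 and 2.60 treated. In both genes replicate 1 lay just beyond the untreated range on the side away from replicates 2 and 3. Without it Arntl rose by 2.76 (adjusted p = 0.0139), its partner Clock, at -0.03 in replicate 1 and from 0.34 to 0.64 untreated, rose by 1.71 (adjusted p = 0.00469) and Dbp changed by -2.69 (adjusted p = 0.0372). The labels used here do not give the hour at which livers were taken.

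The cholesterol pathway was lower in replicates 2 and 3 and not in replicate 1. Of 25 tested genes of cholesterol synthesis and uptake, 21 had a negative change with a median of -0.72, none passed with all arrays, and none had groups that did not overlap. The medians of the treated livers were 0.54, -1.10 and -1.42 relative to the untreated mean, and with slide as a block the median change was -0.30. Mvk, mevalonate kinase, was at 1.01, 0.57 and 0.45 untreated and at 1.15, -1.23 and -1.94 treated. Nsdhl, a sterol dehydrogenase of the late pathway, was at 1.80, 1.34 and 1.37 untreated and at 1.92, -0.37 and -0.29 treated. In both, replicate 1 was the highest of all 6 livers and replicates 2 and 3 the lowest. Without replicate 1, 12 of the 25 fell and none rose, beside 3.4% and 2.54% of all tested genes, with changes of -2.26 for Mvk (adjusted p = 0.00463), -1.83 for Nsdhl (adjusted p = 0.00263), -1.73 for the sterol demethylase Msmo1 (adjusted p = 0.00671) and -1.67 for the isomerase Idi1 (adjusted p = 0.013). Fdps, farnesyl diphosphate synthase, changed by -1.74 (adjusted p = 0.0172), with replicate 1 inside the untreated range.

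**Figure D4:**
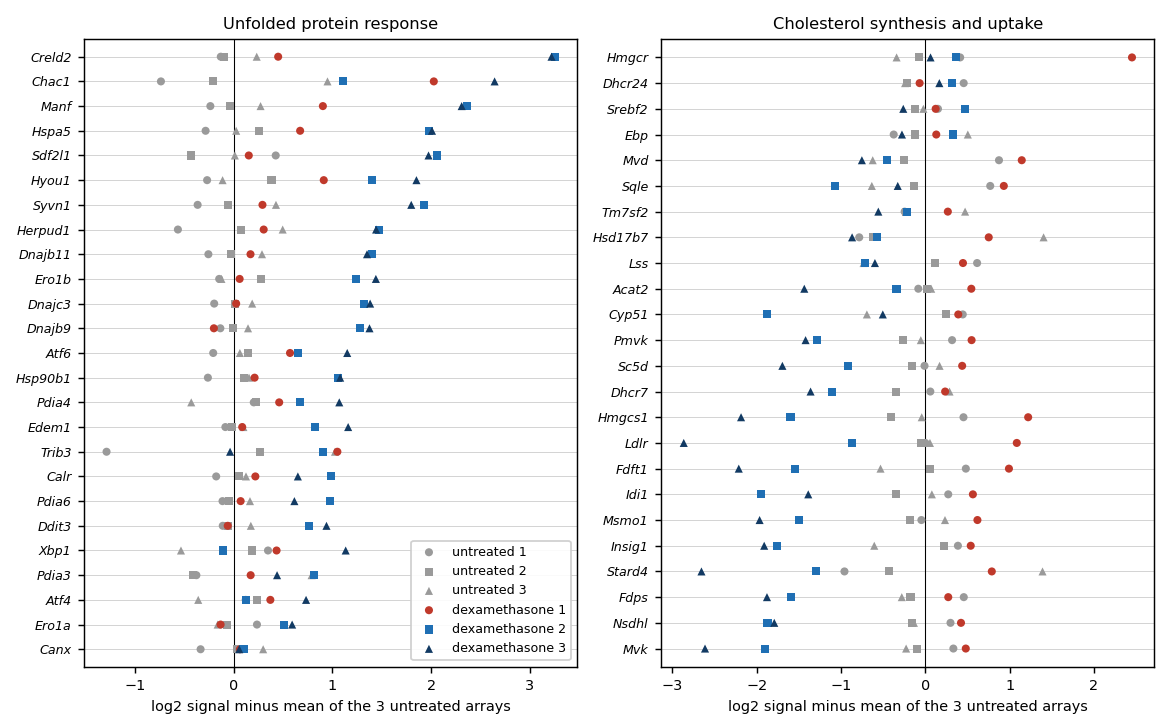
Levels of members of the unfolded protein response (left) and of cholesterol synthesis and uptake (right) on the 6 wild-type arrays, as the log2 level minus the mean of the 3 untreated arrays, with treated replicate 1 in red and replicates 2 and 3 in blue. Cholesterol genes have medians of 0.54, -1.10 and -1.42 in treated replicates 1, 2 and 3, and those of the unfolded protein response 0.22, 1.06 and 1.16.

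Among the decreases without replicate 1, Apol7a, an apolipoprotein of the L family, was at 4.63, 4.82 and 5.17 untreated and at 4.97, 2.23 and 0.83 treated, and fell by -3.35 (adjusted p = 0.00218). Its relative Apol7c fell by -3.53 (adjusted p = 0.00218), and both may share probe signal, which was not tested. Tnfrsf19, a receptor of the tumour necrosis factor family, fell by -4.04 (adjusted p = 0.00218), and Lgr5, the R-spondin receptor that marks Wnt-active hepatocytes around the central vein, by -2.46 (adjusted p = 0.0102). Smpd3, a sphingomyelinase, fell by -3.96 (adjusted p = 0.00951), and the elongation factor Ell3 by -4.17 (adjusted p = 0.00218). In Apol7a, Apol7c, Tnfrsf19 and Smpd3 replicate 1 lay inside the untreated range, in Lgr5 just above it and in Ell3 below it, at -1.13 against -0.91 to -0.53. Of 28 tested nuclear receptors 4 fell, beside 3.4% of all tested genes, among them Rxrg by -2.99 (adjusted p = 0.0101), Nr1i3, which encodes CAR, by -1.39 (adjusted p = 0.0388), and Nr2f2 by -1.05 (adjusted p = 0.0273). Replicate 1 lay inside the untreated range in Rxrg and Nr1i3 and below it in Nr2f2. Igfals, which holds insulin-like growth factors in the blood, was at 3.58, 3.62 and 3.13 untreated and at 2.90, 1.93 and 1.29 treated, lower in every treated liver, and fell by -1.83 without replicate 1 (adjusted p = 0.0183). Acot3, a peroxisomal thioesterase, fell by -4.47 (adjusted p = 0.0419), with replicate 1 inside the untreated range, but with all arrays and slide as a block its change was 1.29.

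Inflammatory genes did not share a direction. Of 23 tested genes of NF-kB, tumour necrosis factor and cytokine signalling 20 had a positive change, none passed and the median was 0.57, with treated medians of 1.08, -0.15 and 0.79. Tnf itself was dim and lower in every treated liver, at -6.38, -6.59 and -7.27 against -3.58, -5.03 and -5.36, a change of -2.09 (adjusted p = 0.129) that turned to 0.29 with normexp correction. By contrast Il1rn, which encodes the interleukin-1 receptor antagonist, was at -1.68, -2.56 and -2.65 untreated and at 3.45, -0.87 and 1.88 treated (change 3.78, adjusted p = 0.17). Tnfaip3, an inhibitor of NF-kB, had a change of 2.71 (adjusted p = 0.161) and was highest in replicate 1, at 3.73. The chemokine gene Cxcl2 was not well above background in any untreated liver and was at least 3.40-fold higher in the treated ones (adjusted p = 0.139). Interferon response genes leaned the other way: 23 of 29 had a negative change, the median was -0.58, and the treated medians were 0.20, -0.98 and -0.79. With slide as a block the median was -0.30. Without replicate 1, 8 of the 29 fell and none rose, beside 3.4% and 2.54% of all tested genes, with Igtp, an immunity GTPase, at -1.43 (adjusted p = 0.00869) and Psmb9, an immunoproteasome subunit, at -1.79 (adjusted p = 0.0183).

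Markers of lymphocytes were lower in treated replicates 2 and 3, a direction that other settings turned in the full comparison. Of 11 tested B cell markers 10 had a negative change with a median of -0.81, which turned to 0.30 with normexp correction and 0.35 with slide as a block. None passed with all arrays, and the mean level was -2.99, -3.58 and -3.64 untreated and -2.86, -4.93 and -5.49 treated. Ms4a1, which encodes CD20, was at -2.34, -3.12 and -2.82 untreated and at -2.82, -5.97 and -7.04 treated, and fell by -3.75 without replicate 1 (adjusted p = 0.0172). Fcer2a and Pax5, not well above background in treated replicates 2 and 3, were at least 2.57-fold and at least 2.07-fold lower there (adjusted p = 0.015 and 0.0263). Those adjusted p values rest on treated signal not well above background and serve as description only. With all arrays the changes of Fcer2a and Pax5 turned to 0.51 and 0.64 with normexp correction and to 0.35 and 0.33 with slide as a block. In bulk liver, fewer cells of a type and less RNA per cell cannot be told apart. Of 16 tested T and NK cell markers 15 had a negative change with a median of -0.53, which was 0.25 with normexp correction and -0.13 with slide as a block. The mean level was -3.06, -3.29 and -3.10 untreated and -2.74, -3.80 and -4.25 treated. Without replicate 1, 3 of them fell, beside 3.4% of all tested genes. They were Cd3g by -1.44 (adjusted p = 0.013), Cd3d by -1.47 (adjusted p = 0.0365) and Cd2 by -1.25 (adjusted p = 0.0453). With all arrays Cd2 turned to 0.36 with normexp correction and 0.14 with slide as a block. The B cell gene Cxcr5, at -3.58 to -5.23 untreated and at -5.31, -8.74 and -8.75 treated, had a change of -3.12 (adjusted p = 0.316) that turned to 0.15 with normexp correction. Cd180, among the 6 genes that fell with all arrays, is expressed by B cells, and the part of the B cell markers in its result was not tested.

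Macrophage, neutrophil and proliferation genes varied between animals within a group. None of 15 Kupffer cell and macrophage markers passed, and their mean level was 3.29, 2.89 and 3.02 untreated and 3.47, 2.51 and 2.53 treated. Neutrophil and monocyte markers had a mean level of 2.36 in untreated replicate 1 and of -1.91 and -2.60 in the other untreated livers, and treated livers were at 0.58, -0.33 and -1.89. Cell cycle genes were also high in untreated replicate 1, with a mean level of 0.55 against -1.91 and -2.08, beside -1.52, -1.71 and -2.38 in the treated livers. In both lists untreated replicate 1 was the highest of the 6 livers. None of the 25 cell cycle genes passed, 22 had a negative change with a median of -0.83, and this median ran from -1.32 to 0.21 as 1 array was left out, so its sign rested on untreated replicate 1.

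**Figure D5:**
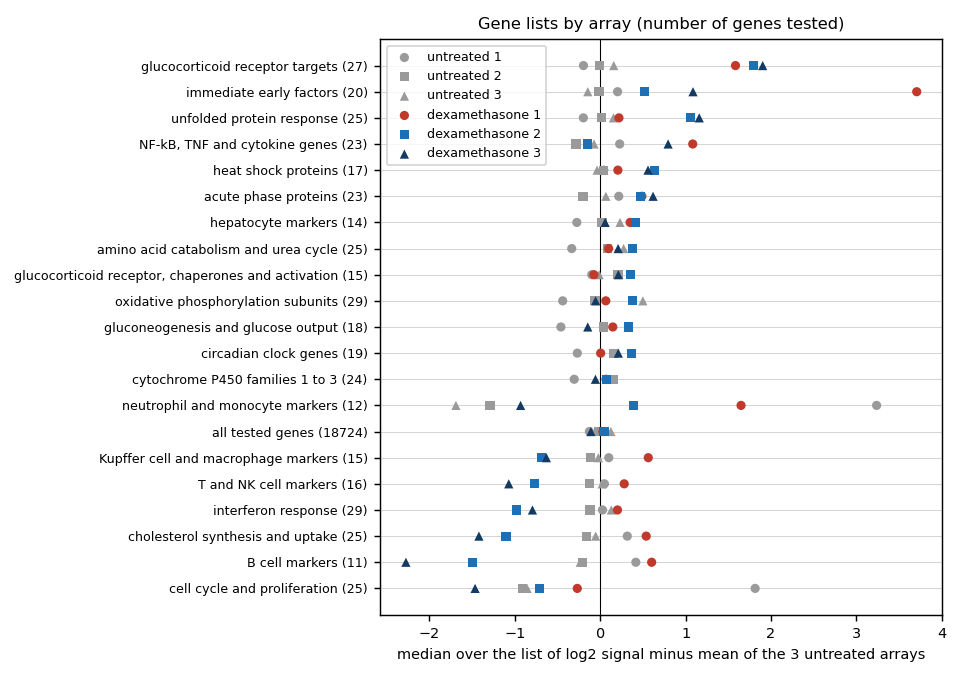
Median over each gene list of the log2 level minus the mean of the 3 untreated arrays (x axis), with 1 row per list, its number of tested genes in brackets, and 1 point per array. Receptor targets of the 3 treated livers lie together (1.58, 1.79 and 1.90), while the cholesterol, interferon and B cell lists of treated replicate 1 lie apart from those of replicates 2 and 3.

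Many functions of the liver gave no call. Of 53 lists, 41 had no member past the threshold and 36 had a median change within 0.25 of 0. None of 30 complement and coagulation factors passed with or without treated replicate 1. Subunits of oxidative phosphorylation had 28 of 29 changes positive, with a median of only 0.14 and no member with groups that did not overlap. Among 14 hepatocyte markers 12 had a positive change with a median of 0.29, and the mean level ran from 6.83 to 7.28 untreated and from 7.25 to 7.55 treated. With quantile normalization that median was 0.04 and with unscaled values -0.04. The median change of all tested genes was -0.02, and it was 0.18 with normexp correction and -0.35 with unscaled values, so changes under those settings are to be read against these shifts. With unscaled values the split of calls was 17 higher and 25 lower.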

How the data were processed

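Array intensity was analysed for 3 untreated and 3 dexamethasone-treated wild-type livers, with the 6 arrays of the other genotype used to estimate the spread. The authors extracted the intensity values with Agilent Feature Extraction, version 9.5 in the submitters' processing notes and 9.5.3.1 per the file headers, from an array designed on the mm7 build, and the deposited processed signal is linear and already background-corrected. The deposited series table equalled that signal on every array (ratio 1), so it carries no scaling or centring, with medians of 53.7 to 112 per column. Each array holds 45018 spots, 1639 of them controls.

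Non-control spots were log2-transformed and scaled by subtracting the array's log2 75th percentile. Outlier spots were left out, saturated spots kept, and spots of a probe averaged; the probe with the highest mean stood for a gene. Of 41174 probes, 22951 were named by accession in the RefSeq table and 9768 by symbol, 1296 kept the file's name and 7159 had none. A gene entered the test if at least 1 of the 4 groups had it well above background on each of its 3 arrays (18724 of 27816). Group means of all 12 arrays were fitted in limma 3.58.1 (R 4.3.3; lmFit, eBayes; 8 residual and 3.12 prior degrees of freedom), with Benjamini-Hochberg adjustment and a threshold of 0.05. The fit was tested on simulated data.

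Genes named in the text were every named gene called; of those called only without treated replicate 1, members of the 20 largest increases and decreases; up to 4 members of each list with the smallest p in either fit; and 10 glucocorticoid and liver genes. Some genes that the rule named are left out here, and Tfcp2l1 lies outside the rule. The comparison and the 53 lists (41 of pathways, 12 of cell type markers) were chosen with earlier results of these data known, and lists are given as counts and medians without a set test. Deviations of same-numbered treated and untreated replicates from their group means correlated at 0.18, -0.10 and -0.03. These values cannot settle whether the numbers pair animals, and the main fit assumed no pairing. Alternatives were quantile and median scaling, normexp correction (offset 50), the unscaled deposited table, no filter on dim probes, the mean of a gene's probes, a fixed or random slide block, a replicate block, an intensity trend with robust estimation, wild-type arrays alone, an adjusted p under 0.01 and leaving out each array.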

Additional observations from a re-analysis of the deposited data

How the results depend on the processing

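The 36 calls (30 higher, 6 lower) became 21 with no filter on dim probes (none lower), 10 at an adjusted p under 0.01 (10 higher, 0 lower) and 0 with slide as a fixed block (606 at an unadjusted p under 0.05 in limma) or with the wild-type arrays alone (1384). Leaving out 1 array gave 11 to 1116 calls, 11 to 477 higher and 0 to 639 lower. Normexp correction left 2 lower, a random slide block 10, and the unscaled table gave 17 higher and 25 lower. With the replicate block 29 passed, 22 of them among the 36, and 2 were lower. Whether the replicate numbers pair animals is not known. Quantile normalization (39), median scaling (37), the mean of all probes (43) and an intensity trend (34) stayed within 1.5 times the count.

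Signs turned with normexp correction for Rpl3l (0.73), Cd180 (0.39), Tnf (0.29), Fcer2a (0.51), Pax5 (0.64), Cd2 (0.36), Cxcr5 (0.15) and Hsd11b1 (-0.084). Slide as a fixed block turned G6pc (0.21), Lcn2 (-0.45), Fcer2a (0.35), Pax5 (0.33), Cd2 (0.14) and Acot3 (1.29). Hsd11b1 was -0.11 with quantile normalization and -0.20 unscaled. Nr3c1 was 0.022 over the mean of its probes. Leaving out 1 array gave -0.11 (without untreated replicate 1) to 0.26 for Hsd11b1, -0.18 (without treated replicate 2) to 1.38 for Tsc22d3 and -0.34 to 0.33 (without treated replicate 3; 0.21 without untreated replicate 3) for G6pc. The cause was not tested. Genes not well above background in a whole group, such as Cd180 and Rpl3l, have only a bound.

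List medians moved too. Unscaled, the median of all tested genes was -0.35, of receptor targets 1.41, of the receptor and its chaperones -0.17, of heat shock proteins 0.17, of acute phase genes 0.13, of amino acid genes -0.092, of clock genes -0.23, of hepatocyte markers -0.036 and of P450 genes -0.28. Normexp gave 0.18 for all genes, 0.33 for heat shock, 0.44 for clock, 0.30 for B cell and 0.25 for T and NK cell genes. Quantile normalization gave 0.22 for acute phase, 0.043 for hepatocyte and -0.15 for P450 genes. With the slide block receptor targets were at 0.86, acute phase genes at 0.16, clock genes at 0.39, B cell markers at 0.35, neutrophil markers at -3.09 and P450 genes at 0.47. Leaving out 1 array gave medians of 0.46 to 0.74 for heat shock, 0.35 to 0.62 for acute phase, 0.27 to 0.52 for clock and -0.18 to 0.18 for P450 genes.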
